A study of Mus musculus with 8 samples.

Results

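The mitosis and G2/M genes are 38 genes whose products carry a cell from the end of DNA replication through division. They were taken by symbol from a list of names by function, by a rule that uses no measured value, and all 38 were found among the 45706 genes of the deposited tables and passed the filter on low counts that left 14006 genes. The RNA came from sorted natural killer (NK) cells, the innate lymphocytes that kill tumour cells lacking MHC class I. Their BALB/c hosts carried a tumour grown under the skin from CT26_β2m-/- cells, a mouse colon carcinoma line without β2-microglobulin, which class I needs. The 4 libraries titled spNK (splenic NK cells) were compared with the 4 titled tuNK (tumour-infiltrating NK cells), and all 8 share the host strain and the tumour model. The tissue tag and source name give the opposite organ to the title in every sample, and group names below are those of the titles. Age and sex of the animals and the sort markers are not in the labels, nor is it stated that each library is a different mouse. The p-values thus set the difference between groups against the spread between these libraries, which may be technical.

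Dividing cells make most of these RNAs only in late S phase, G2 and mitosis, and degrade or silence them again in G1. Cyclin A and the B cyclins activate the kinase CDK1, which with Aurora and Polo-like kinases builds the spindle, while checkpoint proteins on unattached kinetochores hold back the anaphase-promoting complex until all chromosomes are attached. In resting cells such as most peripheral NK cells the genes are kept off by the DREAM complex, and in cycling cells they are driven by B-MYB and FOXM1, which reach many of their promoters through a short element called the cell cycle genes homology region (CHR) and neighbouring CCAAT boxes bound by the factor NF-Y.

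Promoters of 7 members are printed here because these 2 elements are common in the group, and because the genes cover the range of responses described after them: the anaphase-promoting complex partners Cdc20 and Ube2c, the kinase gene Cdk1, the 2 genes of the centralspindlin complex Kif23 and Racgap1, Anln, which had the largest fold change, and Mki67, which had the smallest. The sequences are from RefSeq on GRCm38.p6, read 5′ to 3′ on the strand of the gene, from 120 bases before to 30 bases after the annotated start. Capitals mark TTTGAA or TTCGAA (the CHR letters) and CCAAT on either strand, so that TTCAAA and ATTGG are reverse matches.
Cdc20: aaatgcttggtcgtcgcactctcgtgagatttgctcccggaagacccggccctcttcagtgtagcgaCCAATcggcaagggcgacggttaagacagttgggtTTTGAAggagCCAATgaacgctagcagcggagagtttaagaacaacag
Ube2c: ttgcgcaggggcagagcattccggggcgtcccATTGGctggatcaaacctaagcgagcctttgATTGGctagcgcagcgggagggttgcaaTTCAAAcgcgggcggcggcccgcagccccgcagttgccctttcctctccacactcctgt
Cdk1: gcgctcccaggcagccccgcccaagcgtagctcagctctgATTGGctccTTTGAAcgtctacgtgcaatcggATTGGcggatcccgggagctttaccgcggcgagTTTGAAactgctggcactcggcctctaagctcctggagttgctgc
Kif23: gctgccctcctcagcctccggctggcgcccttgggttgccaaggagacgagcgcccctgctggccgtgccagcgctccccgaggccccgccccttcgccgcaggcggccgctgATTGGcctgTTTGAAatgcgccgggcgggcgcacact
Racgap1: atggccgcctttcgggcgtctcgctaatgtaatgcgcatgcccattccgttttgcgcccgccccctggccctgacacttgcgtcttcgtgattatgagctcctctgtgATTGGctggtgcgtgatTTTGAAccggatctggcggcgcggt
Anln: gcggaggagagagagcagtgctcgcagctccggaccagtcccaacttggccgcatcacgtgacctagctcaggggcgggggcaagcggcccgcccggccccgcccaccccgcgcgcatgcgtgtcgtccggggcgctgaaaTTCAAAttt
Mki67: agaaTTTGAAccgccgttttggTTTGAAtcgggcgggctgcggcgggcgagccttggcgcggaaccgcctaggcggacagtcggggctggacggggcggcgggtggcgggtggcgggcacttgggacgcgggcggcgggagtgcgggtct
The windows lie at chr4:118437314-118437463 (- strand), chr2:164769809-164769958 (+ strand), chr10:69352883-69353032 (- strand), chr9:61946770-61946919 (- strand), chr15:99651627-99651776 (- strand), chr9:22389177-22389326 (- strand) and chr7:135716350-135716499 (- strand). In Cdc20 a TTTGAA at position -18 stands between CCAAT boxes at -53 and -8, counted from the start with no position 0. Ube2c has a reverse match at -29 behind reverse CCAAT boxes at -88 and -57, and Cdk1 has TTTGAA at -71 and -15. In Kif23 and Racgap1 a reverse CCAAT just before the start is followed by TTTGAA at position 3 and position 6. Anln has a reverse match at 22 and a second match at 29, which runs past the printed end, and no CCAAT. Mki67 differs in having its 2 TTTGAA farther upstream, at -116 and -98, with 3 CCAAT boxes before the printed part.

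A window of 250 bases before to 50 after the start was found for 31 members, and not for Ccna2, Aurkb, Kif20a, Tpx2, Cdc25c, Foxm1 and Dlgap5. Of these 31, 23 (74.2%) held TTTGAA or TTCGAA on either strand, against 21.7% of 27025 genes with a window of the same length. Within 50 bases of the start the letters were found in 21 members (67.7%) and in 6.12% of all genes. CCAAT was present in 23 members (74.2%) against 41.1% of all genes, and both motifs in 20 members (64.5%) against 8.61%. TTCGAA reads the same on both strands, and the last letter of CCAAT can be the first letter of TTTGAA. For each motif alone, the shares in the members were near those of 82 other genes with roles in G2 and mitosis, and the share with both was higher in the members. Those genes had 68 windows, of which 67.6% held the CHR letters, 69.1% CCAAT and 50% both. The 45 S phase genes set beside the members had 37 windows, of which 21.6% held the CHR letters, 62.2% CCAAT and 18.9% both. The median log2 fold change was 1.69 in the 23 members with the CHR letters and 1.62 in the 8 without them. A match is a description of letters and not a bound site.

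RNA of the mitosis and G2/M genes was more abundant in tuNK than in spNK as a group. Of 38 members 37 were called higher and 0 lower at an adjusted p under 0.05 (quasi-likelihood test of edgeR, Benjamini-Hochberg over all genes kept), where 35.6% of all 14006 genes were called higher, 34% lower and 69.6% in either direction. The median log2 fold change (tuNK minus spNK) of the members was 1.72, against 0.02 for all genes tested. The member not called was Mki67. At least 2-fold higher and called were 34 members (21.9% of all genes) and at least 4-fold higher were 13 (13.4% of all genes). In 36 members the lowest tuNK value exceeded the highest spNK value, which held for 34.4% of all genes, and the 2 members with overlapping groups were Mki67 and Cenpa. In sorted bulk RNA a larger share of dividing cells and more of these RNAs per cell cannot be told apart.

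Summed over the 38 genes, the level was 919.8, 798, 1495 and 846 CPM (counts scaled to library size with the edgeR TMM factors) in spNK 1 to 4 and 3597, 3235, 3387 and 3176 CPM in tuNK 1 to 4. The 4 tuNK libraries lay close together, and spNK 3 stood above the other 3 spNK libraries but below every tuNK library. Library totals ran from 38745733 to 53886933 estimated counts, and every member had at least 71 counts in each library. The part of counting error in the spread between libraries was not tested.

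**Figure D1:**
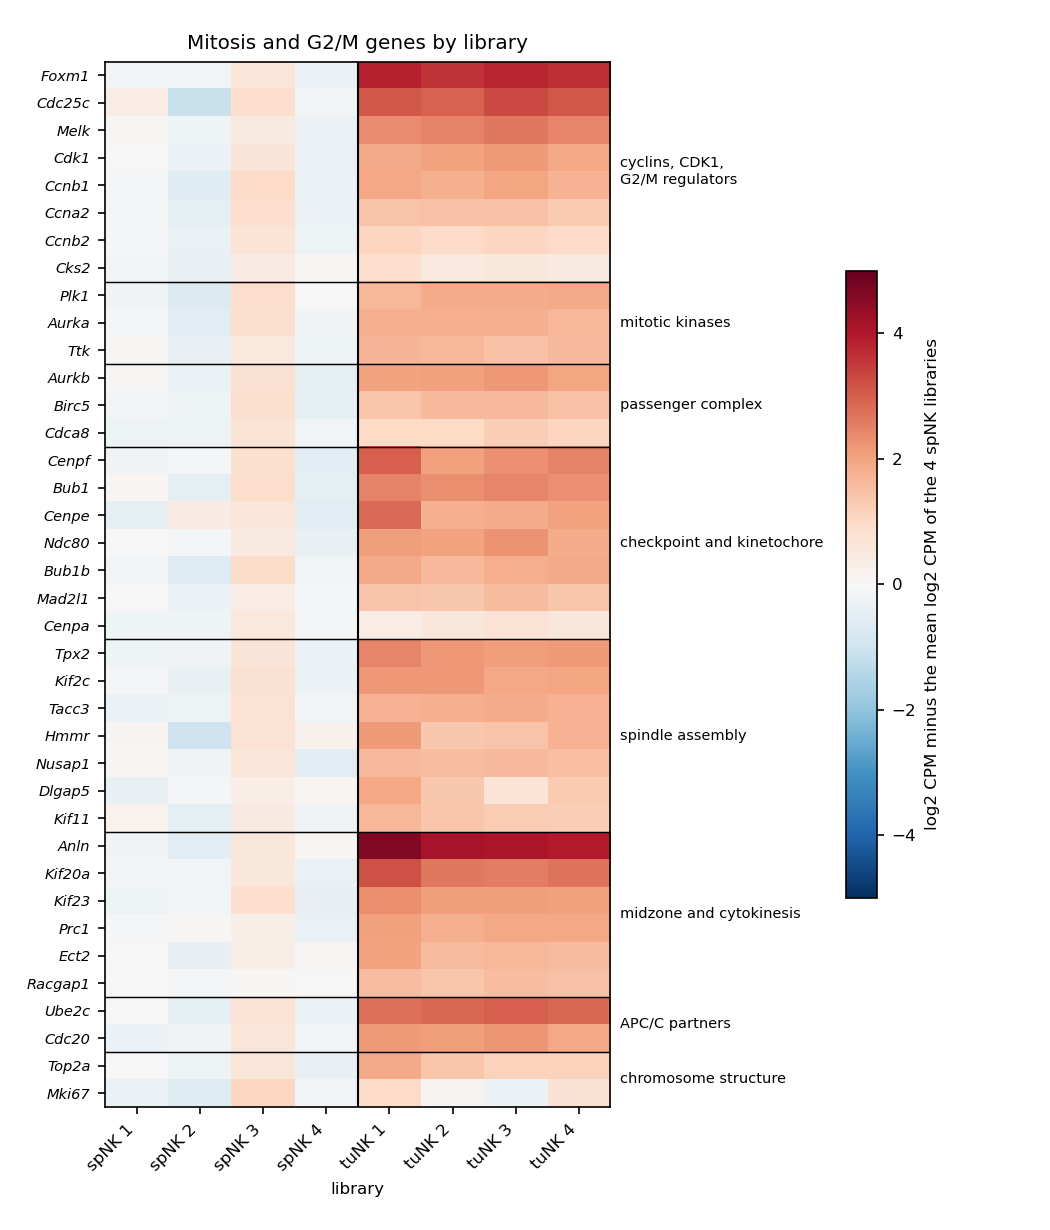
Level of the 38 genes in each library, as log2 CPM minus the mean log2 CPM of the 4 spNK libraries, in rows grouped by role. The tuNK columns are red for nearly all genes, with the deepest colour in Anln and Foxm1, and the spNK 3 column is above the other spNK columns.

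The tuNK libraries also held more RNA of genes typical of mesenchymal cells and less RNA typical of leukocytes. The list of 20 mesenchymal markers holds genes such as Col1a2 (collagen) and Fn1 (fibronectin), which fibroblasts and mesenchymal tumour cells express. The 18 tested summed to 97.1 to 162 CPM in spNK and 3601 to 5223 CPM in tuNK, and all 18 were called higher. Most of the spNK sum was Thy1 (101 ± 19.8 CPM), named after its value was seen, and Col1a2 was at 1.42 ± 0.759 CPM there. Of 11 epithelial tumour cell markers the 6 tested summed to 1.22 to 10 CPM in spNK and 47.1 to 67.9 CPM in tuNK. Of these 4 were called higher (35.6% of all genes), among them Krt18 (31.2 ± 8.53 CPM in tuNK) and Cdh17 (11.8 ± 1.73 CPM in tuNK). Epcam (1.38) and Cdh1 (-1.23), named after their values were seen, were not called. The 34 genes expressed across leukocytes, such as Laptm5 and Coro1a, summed to 15384 to 19359 CPM in spNK and 4725 to 6165 CPM in tuNK, and 32 were called lower and 0 higher. The 16 NK markers, such as Gzma and Il2rb, were present in both groups, at 14696 to 20692 CPM and 5850.3 to 8003 CPM, with 15 called lower and 1 higher. Which cells held the mesenchymal and epithelial marker RNA was not tested. CT26 cells divide in culture and in tumours, and whether their RNA had a part in the mitosis result was not tested.

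Markers of other blood and vessel cells were mostly lower in tuNK by TMM scaling, with exceptions. Of all 14006 genes 34% were called lower and 35.6% higher. All 8 erythroid genes tested were called lower (sums of 0.362 to 2.04 CPM in tuNK), as were all 8 platelet genes (5.51 to 7.6 CPM) and 8 of 9 B cell genes (0.97 to 1.68 CPM). All 7 T cell genes (77.5 to 123 CPM) and all 8 dendritic cell genes (118 to 149 CPM) tested were also called lower, but these sums were not near 0. Most abundant in tuNK were Trbc1 (47 ± 6.65 CPM) and Trbc2 (34.8 ± 11.3 CPM) of the T cell list. Of the dendritic cell list they were Itgax (68.7 ± 6.16 CPM) and H2-Ab1 (24.9 ± 4.79 CPM). Named after their values were seen, Cd4 (0.234 CPM), Cd8a (0.207 CPM), Xcr1 (0.606 CPM) and Clec9a (0.159 CPM) were near 0 in tuNK. In the macrophage list 5 of 11 were lower, such as Ccr2 (563 ± 59.5 to 314 ± 67.6 CPM) and Ly6c2 (274 ± 42.3 to 60.8 ± 5.48 CPM), and 2 were higher, Cd14 (0.28 ± 0.187 to 60.4 ± 6.8 CPM) and Mrc1 (0.4 ± 0.507 to 3.67 ± 0.459 CPM). Of 5 neutrophil genes 4 were lower, such as S100a9 (12.5 ± 8.78 to 0.145 ± 0.18 CPM), and Mmp9 was higher (0.0913 ± 0.127 to 27.6 ± 6.75 CPM).

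In the plasma cell list 4 of 7 genes were lower, with Jchain going from 536 to 0.00635 CPM, while Sdc1 was higher (4.46 ± 2.85 to 39.1 ± 3.78 CPM) and Xbp1 was not called (89.5 ± 15.3 to 98 ± 1.98 CPM). Of 5 endothelial genes 3 were lower, among them Vwf (0 in all 4 tuNK libraries) and Pecam1 (82.4 ± 10.4 to 51.1 ± 12.4 CPM). Kdr (1.01 ± 0.998 to 0.539 ± 0.693 CPM) and Cldn5 (0.309 ± 0.168 to 0.212 ± 0.179 CPM) were low in both groups and not called. Other genes at 0 in all 4 tuNK libraries included the B cell gene Ms4a1, the neutrophil gene Ngp, the erythroid genes Alas2 and Slc4a1 and the plasma cell gene Mzb1. These 5, with Cd14, Mrc1, Sdc1, Kdr and Cldn5, were named after their values were seen. The part of any of these cell types in the mitosis result was not tested.

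Scaling each library to the 34 leukocyte genes in place of TMM shifted the median over all genes from 0.02 to 1.73 on the log2 scale and turned the split of called genes from 4983 higher and 4761 lower to 11024 higher and 872 lower. By that scaling all 38 members were called higher, with a median of 3.40, where 78.7% of all genes were called higher and 6.23% lower. The T cell list then had 3 genes called higher and 3 lower, and the macrophage list 4 and 3. The plasma cell list had 2 and 3, the neutrophil list 1 and 4, and the endothelial list 1 and 1. The erythroid, platelet and B cell lists kept 8 genes each called lower and the dendritic cell list 5, with 0 higher.

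**Figure D2:**
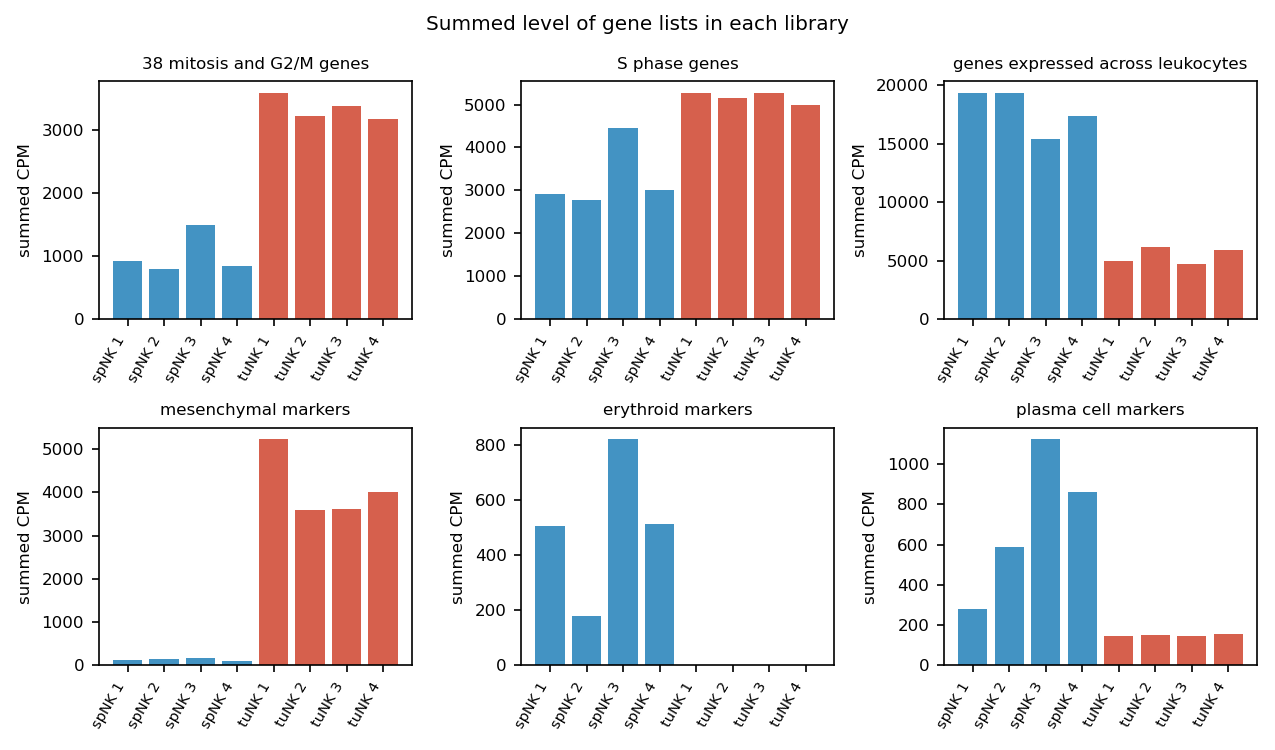
Summed CPM of 6 gene lists in each of the 8 libraries, on linear axes from 0. The mitosis and S phase sums are higher in tuNK together with the mesenchymal markers, the leukocyte genes are lower there, and spNK 3 has the highest erythroid and plasma cell sums.

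Among the cyclins, CDK1 and their regulators all 8 members rose, with a median log2 fold change of 1.84. Foxm1 (ENSMUSG00000001517; chromosome 6, 128362967 to 128376146 on GRCm38), the forkhead factor that drives many genes of this group, stood at 7.4, 7.42, 12.3 and 6.66 CPM in spNK 1 to 4 and 119, 100, 116 and 106 CPM in tuNK 1 to 4. The groups were far apart, and the log2 fold change was 3.71 ± 0.19 (SE; edgeR adjusted p = 7.88e-08). Foxm1 shares 241 exonic bases with Tex52 and Gm44596 on its strand. Cdk1 (chromosome 10, 69335146 to 69352938), the kinase that starts mitosis, was at 30.4, 24.2, 46.5 and 23.8 CPM in spNK 1 to 4 and 112, 122, 131 and 115 CPM in tuNK 1 to 4. Every tuNK value was above the spNK maximum by more than the range of either group, and Cdk1 rose by 1.95 ± 0.20 (edgeR adjusted p = 1.34e-05).

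The cyclin partners of CDK1 rose by unequal amounts. Ccnb1 (chromosome 13, 100778650 to 100786570), cyclin B1, was measured at 30.4, 21.4, 63 and 26.7 CPM in spNK 1 to 4 and 123, 112, 127 and 109 CPM in tuNK 1 to 4. Its rise of 1.74 ± 0.31 (edgeR adjusted p = 0.000872) was 2.16 without spNK 3, the library that held the highest spNK value. Ccnb2, cyclin B2, had values of 31.6, 26.6, 54.4 and 28.1 CPM in spNK 1 to 4 and 70.4, 65.7, 71.2 and 65 CPM in tuNK 1 to 4 and rose by 0.95 ± 0.21. Ccna2, cyclin A2, which acts in S phase and G2, went from 75.8 ± 33.7 to 192 ± 9.79 CPM (SD, n = 4 each), a rise of 1.34 ± 0.25. By length-scaled level (TPM), Ccnb1 was below Ccnb2 in spNK (22.7 ± 12.1 against 29 ± 10.3 TPM). In tuNK it was above Ccnb2 (62.9 ± 10.4 against 47.7 ± 5.59 TPM). The ± SD ranges of these genes overlapped in both groups, while each library had the order of its group means.

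Cdc25c, a phosphatase that activates CDK1, had 4.21, 1.53, 5.92 and 3.01 CPM in spNK 1 to 4 and 28.5, 25.3, 32 and 27.9 CPM in tuNK 1 to 4, and rose by 2.96 ± 0.34 (edgeR adjusted p = 3.14e-05). Its spNK values were uneven, from 1.53 CPM in spNK 2 to 5.92 CPM in spNK 3, and its tuNK values lay close together. Melk, a kinase gene expressed in proliferating cells, rose by 2.45 ± 0.17 from 10.1 ± 2.42 to 55.1 ± 5.02 CPM. Cks2, a small subunit that binds CDK1, moved least in this role, at 27.1, 23.6, 40.6 and 31.8 CPM in spNK 1 to 4 and 53.9, 42.6, 45.2 and 41.3 CPM in tuNK 1 to 4. The highest spNK and lowest tuNK values nearly met, and the change of 0.57 ± 0.16 passed the edgeR test (adjusted p = 0.00922), but it did not pass with libraries scaled by size alone (0.41, adjusted p = 0.0638) or by limma on log2(TPM + 1) (0.34, adjusted p = 0.119).

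The kinases that drive spindle assembly rose together and by similar amounts. Plk1 (chromosome 7, 122159439 to 122169873), Polo-like kinase 1, was at 19.9, 14.2, 41.6 and 22.3 CPM in spNK 1 to 4 and 72, 82.2, 82.9 and 83 CPM in tuNK 1 to 4. The lowest tuNK library was tuNK 1, and Plk1 rose by 1.71 ± 0.29 (edgeR adjusted p = 0.000509). Aurka, Aurora kinase A at the spindle poles, had 16, 12, 29.9 and 15.4 CPM in spNK 1 to 4 and 58.6, 61.2, 59.9 and 54.8 CPM in tuNK 1 to 4. This gave a rise of 1.68 ± 0.25. Ttk, the checkpoint kinase MPS1, rose by 1.57 ± 0.20 from 6.74 ± 1.94 to 20 ± 1.44 CPM. These 3 log2 fold changes lay within their standard errors of each other.

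The chromosomal passenger complex corrects faulty attachments of chromosomes and later guides cleavage. Aurkb, its kinase Aurora B, had 25.5, 19.3, 41.7 and 17.8 CPM in spNK 1 to 4 and 99.9, 102, 111 and 96.2 CPM in tuNK 1 to 4, and rose by 1.97 ± 0.25 (edgeR adjusted p = 6.47e-05). Birc5, which encodes survivin, the subunit that brings the complex to the centromere, was at 28.3, 27.1, 54.9 and 22.9 CPM in spNK 1 to 4 and 81.9, 95.9, 96.7 and 86.7 CPM in tuNK 1 to 4. The spNK 3 value was nearest to tuNK, and the rise was 1.44 ± 0.25. Cdca8, which encodes borealin, rose by 1.02 ± 0.20, from 25.5 ± 8.98 to 51.6 ± 4.28 CPM. Incenp, the scaffold of the complex and not among the 38, rose by 0.70 and was named after its value was seen.

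All 7 checkpoint and kinetochore genes were called higher, with a median of 2.03 and a range from 0.51 to 2.41. Bub1 (chromosome 2, 127801122 to 127831865), a checkpoint kinase, was measured at 14.8, 10.1, 25.5 and 9.97 CPM in spNK 1 to 4 and 77.8, 69.5, 76.6 and 67.9 CPM in tuNK 1 to 4. It rose by 2.27 ± 0.28 (edgeR adjusted p = 6.8e-05). Its paralogue Bub1b, which encodes BUBR1, rose by 1.69 ± 0.30 and by 2.10 without spNK 3. Mad2l1, which encodes the checkpoint protein MAD2, had 49.2, 39.1, 62.5 and 44.3 CPM in spNK 1 to 4 and 129.7, 121, 142 and 125 CPM in tuNK 1 to 4, a rise of 1.41 ± 0.14. Ndc80, part of the kinetochore complex that grips microtubules, rose by 2.03 ± 0.17 from 10.7 ± 2.56 to 43.6 ± 4.85 CPM.

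The large kinetochore proteins CENP-E and CENP-F were encoded by the least abundant RNAs of the 38 by mean TPM in both groups. Cenpe, a kinesin motor, was at 1.65, 3.07, 3.51 and 1.63 CPM in spNK 1 to 4 and 16.5, 8.04, 8.31 and 9.42 CPM in tuNK 1 to 4, and tuNK 1 stood apart from the other tuNK libraries. Cenpe rose by 2.09 ± 0.34 in counts, but did not pass by limma on log2(TPM + 1) (0.53, adjusted p = 0.0649). Cenpf had 3, 3.16, 5.92 and 2.38 CPM in spNK 1 to 4 and 27.3, 14.2, 16.6 and 19 CPM in tuNK 1 to 4, again highest in tuNK 1, and rose by 2.41 ± 0.31 (edgeR adjusted p = 4.84e-05).

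Cenpa, the histone H3 variant that marks centromeres, had the smallest fold change in this role. Its values were 51.7, 51.5, 87.2 and 56.5 CPM in spNK 1 to 4 and 77.1, 88, 99.3 and 88.3 CPM in tuNK 1 to 4. The spNK 3 value exceeded that of tuNK 1, so the groups overlapped. Cenpa rose by 0.51 ± 0.17 (edgeR adjusted p = 0.0187), and this call was lost with libraries scaled by size alone (0.34, adjusted p = 0.0926), by limma on TPM (0.43, adjusted p = 0.0577), and without spNK 1, spNK 2, spNK 4 or tuNK 3 (0.42 to 0.46, adjusted p 0.0525 to 0.0654). Without spNK 3 it was 0.72 (edgeR adjusted p = 9.47e-05).

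Genes of spindle assembly rose in all 7 cases, between 1.35 and 2.15 on the log2 scale. Tpx2, which targets Aurora A to the spindle and seeds microtubules, had 18.4, 18.9, 33.4 and 17.2 CPM in spNK 1 to 4 and 114, 94.1, 89.1 and 93.3 CPM in tuNK 1 to 4. The rise was 2.15 ± 0.21 (edgeR adjusted p = 8.71e-06). Kif2c, a kinesin that takes microtubules apart, rose by 1.98 ± 0.24, and Kif11, the kinesin that pushes spindle poles apart, by 1.35 ± 0.19. Tacc3, which stabilises spindle fibres, was at 27.4, 29.5, 57.2 and 31.4 CPM in spNK 1 to 4 and 117, 122, 125 and 117 CPM in tuNK 1 to 4, the least variable member within tuNK by its coefficient of variation (3.24%). Nusap1, a protein that bundles microtubules, rose by 1.52 ± 0.20. Hmmr and Dlgap5, both of which encode microtubule-binding spindle proteins, rose by 1.56 ± 0.33 and 1.37 ± 0.26. In Dlgap5 the values were 5.1, 6.18, 8.21 and 7.07 CPM in spNK 1 to 4 and 25.2, 16.5, 10.6 and 16.4 CPM in tuNK 1 to 4, and tuNK 3 came close to the highest spNK library. Dlgap5 was not called by limma on log2(TPM + 1) over all genes above 0 (adjusted p = 0.065).

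The genes of the central spindle and of cytokinesis included the largest change. Anln (ENSMUSG00000036777; chromosome 9, 22332012 to 22389188), which encodes anillin, a scaffold of the cleavage furrow, stood at 7.54, 5.84, 12.6 and 9.13 CPM in spNK 1 to 4 and 207, 146, 142 and 133 CPM in tuNK 1 to 4. The lowest tuNK value was far above the highest spNK value, and the log2 fold change of 4.16 ± 0.25 (edgeR adjusted p = 4.79e-07) is 17.9-fold. The value without tuNK 1, which also had the highest sum of mesenchymal markers, was 3.98. Kif20a, a kinesin of the central spindle, had 12.9, 12.7, 21 and 11.3 CPM in spNK 1 to 4 and 128, 86.2, 83.6 and 91 CPM in tuNK 1 to 4, and rose by 2.75 ± 0.22. Its exons overlap those of Cdc23 on the opposite strand.

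Other members of this role rose by amounts near the median of the 38. Racgap1 (chromosome 15, 99620496 to 99651656), the GTPase-activating subunit of centralspindlin, had 100.2, 95.9, 102 and 96.3 CPM in spNK 1 to 4 and 285, 261, 290.2 and 272 CPM in tuNK 1 to 4. It was the steadiest member within spNK (coefficient of variation 2.97%), and spNK 3 did not stand out. Racgap1 rose by 1.49 ± 0.07 (edgeR adjusted p = 4.12e-08), the smallest adjusted p of the 38. Its kinesin partner Kif23 was at 10.2, 11, 21.7 and 9.13 CPM in spNK 1 to 4 and 61.5, 52.4, 52.4 and 51.1 CPM in tuNK 1 to 4, a rise of 2.06 ± 0.26. Prc1, which crosslinks the microtubules of the midzone, rose by 1.91 ± 0.13, and Ect2, the exchange factor that centralspindlin recruits to activate RhoA, by 1.69 ± 0.16. The exons of Prc1 share 911 bases with Rccd1 on the opposite strand.

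Both partners of the anaphase-promoting complex rose more than the median member. Ube2c (ENSMUSG00000001403; chromosome 2, 164769898 to 164778822), the ubiquitin-conjugating enzyme that works with the complex, had 26.1, 19.6, 43.9 and 21.9 CPM in spNK 1 to 4 and 179, 192, 213 and 193 CPM in tuNK 1 to 4. The rise was 2.80 ± 0.24 (edgeR adjusted p = 4.56e-06), and Ube2c became the most abundant member by TPM in tuNK. Cdc20 (chromosome 4, 118432901 to 118437352), the activator that opens anaphase, was at 27.8, 30.4, 52.6 and 31 CPM in spNK 1 to 4 and 150.2, 147, 157 and 131 CPM in tuNK 1 to 4, a rise of 2.04 ± 0.19. The subunits of the complex itself, present through the cycle, had smaller values: of 15 genes for subunits and the G1 activator Fzr1, 10 were called higher and 0 lower (35.6% and 34% of all genes), with a median of 0.34. The 4 most abundant of these were Anapc5 (0.91), Anapc1 (0.63), Anapc2 (0.34) and Anapc11 (0.69), all of them called.

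**Figure D3:**
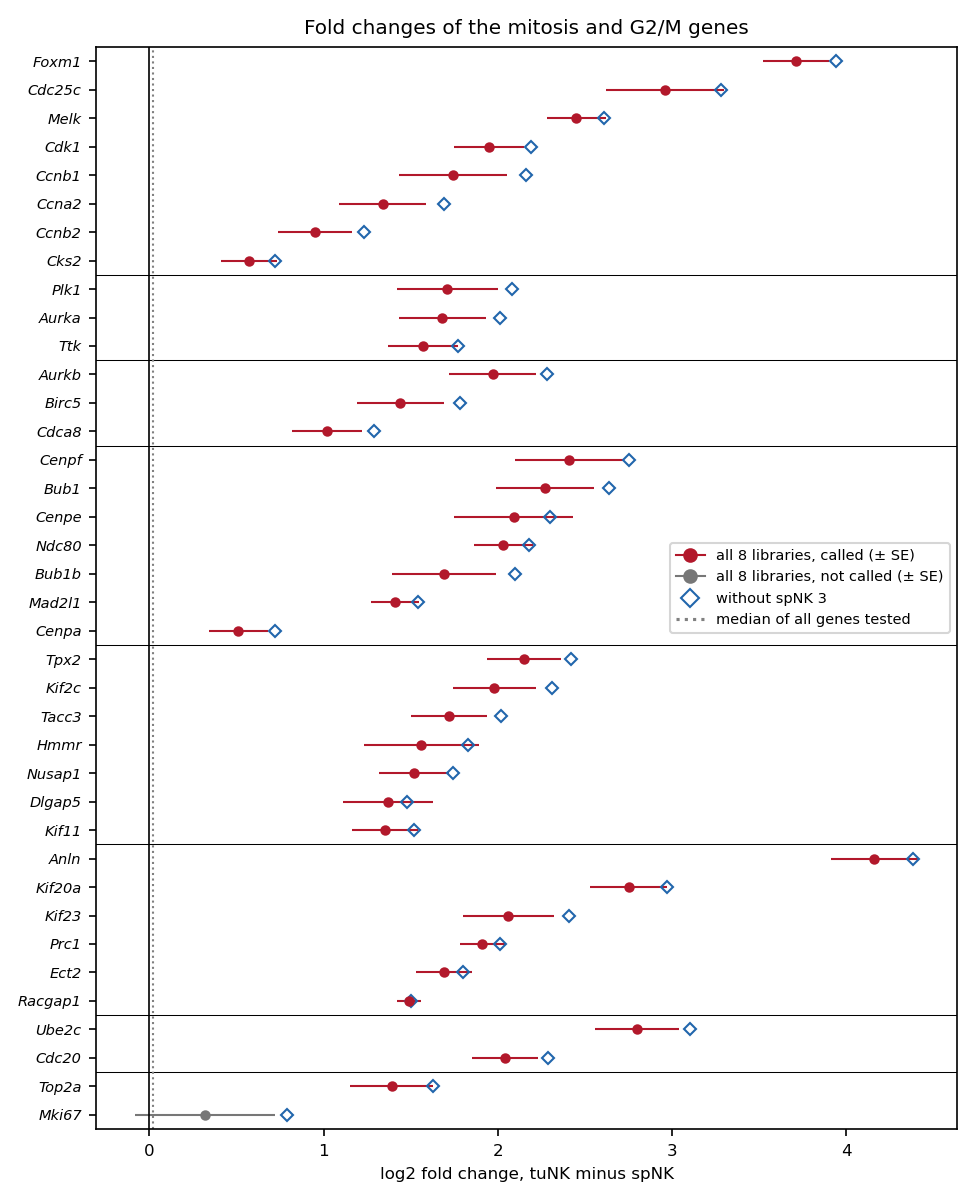
Log2 fold change (tuNK minus spNK) of each gene with its standard error, by role in the order of the heat map, from all 8 libraries (filled) and without spNK 3 (open). All points from 8 libraries lie above the median of all genes (dotted, 0.02), from 0.32 in Mki67 to 4.16 in Anln, and the open points lie at or to the right of the filled ones.

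Top2a and Mki67 are both used as markers of dividing cells and gave different results. Top2a (chromosome 11, 98992943 to 99024189), topoisomerase II alpha, which untangles sister chromatids, was at 73, 62.1, 113 and 57.8 CPM in spNK 1 to 4 and 275, 195, 166 and 164 CPM in tuNK 1 to 4. It rose by 1.39 ± 0.24 (edgeR adjusted p = 0.000677), with tuNK 1 the highest. Mki67 (ENSMUSG00000031004; chromosome 7, 135689784 to 135716361), which encodes Ki-67, the coat protein of mitotic chromosomes, stood at 18.8, 15.6, 48.2 and 21.6 CPM in spNK 1 to 4 and 45.1, 26, 19.1 and 40 CPM in tuNK 1 to 4. The groups overlapped, since spNK 3 held the highest value of all and tuNK 3 was within the range of the other spNK libraries. The log2 fold change was 0.32 ± 0.40 and did not pass the edgeR test (adjusted p = 0.496).

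The result for Mki67 depended on which libraries were used. Without spNK 3 it was called higher (0.79, edgeR adjusted p = 0.0315), without tuNK 1 its log2 fold change was 0.10, and without both it was 0.59 and not called (adjusted p = 0.0666). Per length it stood at 2.9 ± 1.62 TPM in spNK and 3.13 ± 1.36 TPM in tuNK, near the bottom of the members in both groups. A p that misses the threshold does not show that Mki67 was equal in the groups. Scaled to the leukocyte genes, the change was 1.97 and was called (edgeR adjusted p = 0.00256), beside a median of 1.73 for all genes under that scaling.

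Differences among members do not depend on how libraries are scaled when each gene is taken as a share of the summed CPM of the 38. Anln made up 0.82, 0.732, 0.844 and 1.08% of the sum in spNK 1 to 4 and 5.75, 4.5, 4.19 and 4.2% in tuNK 1 to 4. Foxm1 went from 0.836 ± 0.0644% to 3.3 ± 0.146% (SD, n = 4 each), and Ube2c from 2.71 ± 0.22% to 5.83 ± 0.579%. In the other direction, Cenpa held 6.15 ± 0.499% in spNK and 2.64 ± 0.345% in tuNK, Cks2 3.1 ± 0.457% and 1.36 ± 0.0915%, and Mki67 2.45 ± 0.58% and 0.97 ± 0.344%. Plk1 (2.34 ± 0.457% and 2.4 ± 0.274%), Aurka and Tacc3 kept nearly the same share. These shares are given as descriptions, since the genes were picked for their fold changes.

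By TPM, which allows levels to be compared between genes, the 5 most abundant members in spNK were Cenpa (79 TPM), Cks2 (70), Racgap1 (56.3), Birc5 (48.6) and Cdk1 (47.6). In tuNK the order was Ube2c (237 ± 12 TPM), Cdk1 (157 ± 11.7), Racgap1 (136 ± 14.5), Birc5 (111 ± 6.68) and Cenpa (103 ± 4.3). Ube2c stood clear of Cdk1 by more than the spread of either, while Cenpa and the next gene, Mad2l1 (97.7 ± 9.82), lay within their spread. In spNK the leading pair, Cenpa (SD 27.1) and Cks2 (SD 16.1), did not differ beyond their spread. Anln moved furthest in rank, from the 36th place in spNK (1.86 TPM) to the 21st in tuNK (28.5 TPM).

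**Figure D4:**
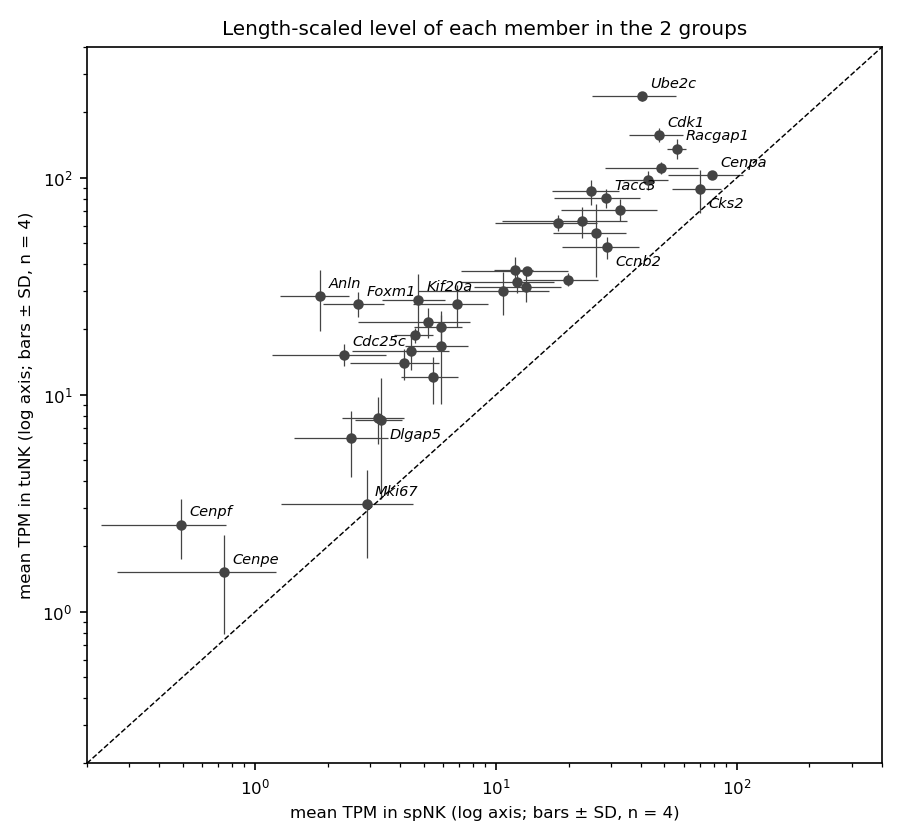
Mean TPM of each member in spNK and tuNK on log axes, with bars of ± SD (n = 4) and a dashed line of equal level. Anln and Foxm1 lie farthest above the line, Ube2c is the highest in tuNK at 237 TPM, and Mki67, Cenpa and Cks2 lie nearest the line.

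Libraries of the same group differed in a pattern shared across members. In spNK, spNK 3 was the highest library for 38 of 38 members, against 30.8% of all genes, at 1.04 (Racgap1) to 2.58 (Mki67) times the mean of the other 3 spNK libraries, with a median of 1.8. The same library had the highest summed erythroid markers (504, 181, 819.9 and 511 CPM in spNK 1 to 4, against 0.362 to 2.04 CPM in tuNK) and plasma cell markers (279, 586, 1122 and 861 CPM, against 147 to 154 CPM in tuNK), and the lowest leukocyte and NK sums of its group. It was also highest for the sums of dendritic cell (839 CPM, others up to 637), B cell (38 CPM, others up to 17) and macrophage markers (1047 CPM, others up to 942). Their part in the higher mitotic RNA of spNK 3 was not tested. Without spNK 3 all 38 members were called higher (35.9% of all genes), and the median log2 fold change was 2.05 in place of 1.72.

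The spread within groups followed the same library. The median coefficient of variation of the members was 35.1% in spNK (15.8% over all genes tested) and 14.4% without spNK 3 (12.7% over all genes). In tuNK it was 8.29%, below the 14.9% of all genes. The values for all genes include genes with low counts, and the members were not compared with genes of like abundance. Most members were highest in tuNK 1 (19 members, 31% of all genes) or tuNK 3 (16 members, 26.9% of all genes), and 1 was highest in tuNK 2 (20.2% of all genes) and 2 in tuNK 4 (21.9% of all genes). Of the 4 members with the longest transcripts, Cenpf, Mki67 and Cenpe were highest in tuNK 1 and Mad2l1 in tuNK 3. Across the 38 members, Pearson's r between log2 transcript length and the deviation from the group mean was 0.59 in tuNK 1, -0.48 in tuNK 2, -0.55 in tuNK 3 and 0.24 in tuNK 4. Across 9303 genes with a mean of at least 8 CPM it was 0.33, -0.01, -0.27 and -0.04. These are descriptions across genes that share their libraries. The longest coding transcripts are those of Cenpf (11130 nt) and Mki67 (10061 nt), and the part of length in their uneven tuNK values was not tested. Between the groups, r of the log2 fold change with log2 length was 0.20 over the members.

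Of 82 other genes with roles in G2 and mitosis, 70 were called higher and 1 lower (35.6% and 34% of all genes), with a median log2 fold change of 1.35. Of the 4 most abundant, the tubulin genes Tuba1b (1053 ± 259 to 3213 ± 272 CPM, 1.61), Tuba1c (1.59) and Tubb4b (0.48) rose, while H2afz, a histone variant gene used throughout the cycle, fell by 0.35 (edgeR adjusted p = 0.00614). Reads of the near-identical Tuba1b and Tuba1c can be exchanged between them. The direction of H2afz turned with scaling to the leukocyte genes (1.37). Of 45 S phase genes 31 were called higher and 3 lower (35.6% and 34% of all genes), with a median of 0.71. Pcna (0.91), Mcm7 (0.72) and Rrm1 (0.87) rose, and Mcm5 had a log2 fold change of 0.40 (edgeR adjusted p = 0.0685). Whether the mitotic genes differed more than the S phase genes was not tested.

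Of 22 genes for factors that switch the group on and off (MuvB and DREAM subunits, E2F factors, B-MYB and NF-Y), 8 were called higher and 7 lower, with a median of 0.18. These shares are near those of all genes (35.6% higher and 34% lower), and scaled to the leukocyte genes 20 were higher and 0 lower. Rbl2, which encodes p130, the pocket protein of DREAM in resting cells, fell by 1.48 (173 ± 27.8 to 62 ± 9.39 CPM, edgeR adjusted p = 4.18e-06), but its leukocyte-scaled value was 0.23. Rbbp4 fell by 0.19 (leukocyte-scaled 1.52), Tfdp1 rose by 0.79, and E2f4, the DREAM E2F, had 0.15 (edgeR adjusted p = 0.219). Named after their values were seen, Mybl2, which encodes B-MYB, was at 10.8, 9.71, 24.8 and 14.9 CPM in spNK 1 to 4 and 54.4, 48.5, 50.1 and 48.4 CPM in tuNK 1 to 4 and rose by 1.74, with spNK 3 again the highest of its group. E2f1 rose by 2.16 and E2f7 by 2.92, while E2f2 fell by 1.55 (leukocyte-scaled 0.15). Of the less abundant MuvB core genes, Lin37 fell by 0.52 and Lin52 by 0.59 (leukocyte-scaled 1.20 and 1.13), and Lin9 (0.21) and Lin54 (0.33) were not called.

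Upstream of mitosis, 8 of 12 G1 cyclin and kinase genes were called higher and 3 lower (35.6% and 34% of all genes), with a median of 0.83. Ccnd1, cyclin D1, which fibroblasts and epithelial cells use and lymphocytes largely lack, was at 4.19, 4.33, 5.9 and 4.94 CPM in spNK 1 to 4 and 783, 611, 641 and 618 CPM in tuNK 1 to 4. It rose by 7.10 ± 0.16, and the lymphocyte D cyclins Ccnd2 and Ccnd3 fell by 1.08 and 1.36 (leukocyte-scaled 0.63 and 0.34). Which cells held the Ccnd1 RNA was not tested. Cdk4, the kinase partner of D cyclins, rose by 1.15. Of 19 inhibitors and quiescence genes 4 were called higher and 11 lower (35.6% and 34% of all genes), with a median of -0.89, and scaled to the leukocyte genes 12 were higher and 3 lower. Btg1, an antiproliferative gene of resting lymphocytes, fell by 0.89 (leukocyte-scaled 0.83), Trp53 rose by 0.45, and Btg2 (-0.08) and Ccng1 (-0.03) were not called. The CDK inhibitor genes, named after their values were seen, went opposite ways. Cdkn1a, which encodes p21, was at 15.3, 8.91, 7.37 and 15.6 CPM in spNK 1 to 4 and 294, 245, 238 and 242 CPM in tuNK 1 to 4 and rose by 4.43, while Cdkn1b, which encodes p27, fell by 1.64 (leukocyte-scaled 0.07).

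**Figure D5:**
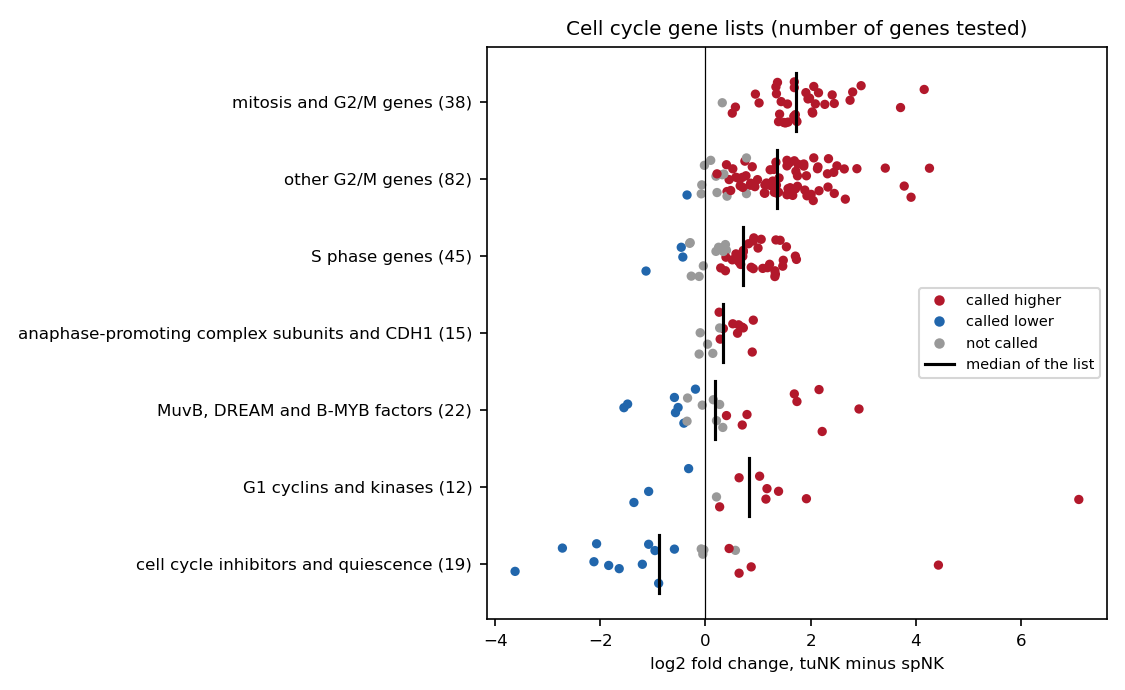
Log2 fold change (tuNK minus spNK) of each gene in 7 cell cycle lists, coloured by call, with a black line at the median of each list. Medians run from 1.72 for the mitosis and G2/M genes to -0.89 for inhibitors and quiescence genes, and the point near 7.10 is Ccnd1.

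Reads can be shared with genes on overlapping strands for part of the group. Exons of 10 members overlap those of a gene on the opposite strand, and the library method keeps strand, but whether the counting used strand is not given in the sources used here. Among these, the largest overlaps are those of Kif20a with Cdc23 (1271 bases) and Prc1 with Rccd1 (911 bases).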

How the data were processed

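Poly(A) RNA-seq libraries of 8 samples were compared, 4 spNK against 4 tuNK. Per the submitters' processing notes, the authors used FastQC 0.11.9, STAR and Salmon with GRCm38; for STAR and Salmon no version is given in the sources used here, nor is an annotation or a strand setting. The deposited tables hold the authors' estimated counts per gene, which need not be whole, and TPM, which is scaled per length and per library. Estimated counts were rounded to whole numbers for the fits. Genes passing edgeR's filterByExpr by group were kept (14006 of 45706).

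The groups were compared with edgeR 4.0.16 (R 4.3.3), by TMM scaling and the quasi-likelihood test, with Benjamini-Hochberg adjustment over all genes kept and a threshold of 0.05. Alternatives used other scaling, filters and fold thresholds, DESeq2 1.42.0, limma 3.58.1 on log2(TPM + 1), and each library left out. The fitting scripts were tested on simulated data. CPM values use the TMM factors, and ± marks the SD of 4 libraries for levels and the SE for log2 fold changes. This SE was derived from the test, as the size of the log2 fold change divided by the square root of the quasi-likelihood F value.

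The rule for the 38 genes is by function and uses no measured value, but the genes, the other lists and the tests were proposed with earlier results of these data known. The text names all 38 and the 4 most abundant genes of each other cell cycle list. It also names the 2 most abundant of the leukocyte, NK, mesenchymal, epithelial, macrophage, neutrophil, dendritic cell, T cell, plasma cell and endothelial lists. The rule also covers the 2 most abundant genes of the remaining marker lists, which are given by counts and sums only. Other genes, including Lin9, Lin37, Lin52 and Lin54, were named after their values were seen. Gene positions and exon overlaps are from GENCODE M21, and promoters from RefSeq, matched by symbol.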

Additional observations from a re-analysis of the deposited data

Results flagged for a closer look

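Of 92 sets of 4 libraries examined (each member and 8 list sums, in each group), 19 had a library standing apart from the other 3, with a gap to the nearest that exceeds Dixon's critical share of the range for 4 values. Chance gives about 1 in 20 such sets, and the sets share libraries. The highest spNK library was spNK 3 for Cenpa (87.2 CPM, others up to 56.5), Kif20a (21 CPM, others up to 12.9), Kif23 (21.7 CPM, others up to 11), Kif2c (16.1 CPM, others up to 8.7), Cdc20 (52.6 CPM, others up to 31), Tpx2 (33.4 CPM, others up to 18.9), Birc5 (54.9 CPM, others up to 28.3), Cdca8 (38.9 CPM, others up to 22.2), Foxm1 (12.3 CPM, others up to 7.42), Tacc3 (57.2 CPM, others up to 31.4). The summed levels of the other G2/M genes (6414 CPM, others up to 5168) and of the S phase genes (4461 CPM, others up to 3007) stood apart in the same library, and the sum of inhibitors and quiescence genes was lowest there (1801 CPM, others from 2144). In tuNK, tuNK 1 stood above the other libraries for Cenpe (16.5 CPM, others up to 9.42), Kif20a (128 CPM, others up to 91), Kif23 (61.5 CPM, others up to 52.4), Anln (207 CPM, others up to 146), Ect2 (62.2 CPM, others up to 48.1), and below them for Plk1 (72 CPM, others from 82.2). Marker sums of erythroid and plasma cells were highest in spNK 3 of its group (819.9 and 1122 CPM) as were those of dendritic, B and macrophage cells, and those of mesenchymal cells were highest in tuNK 1 (5223 CPM), and their part was not tested.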

How the results depend on the processing

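Over 21 settings and 38 members, 798 log2 fold changes were recomputed: 778 kept their direction and their side of the threshold, 18 were no longer called, 2 (both Mki67) became called, and 0 changed direction. Leaving out each library in turn gave 36 to 38 members called, all of them higher and 0 lower, and a median of 1.56 to 2.05. For all genes it gave 9451 to 9907 called, 4754 to 5156 higher and 4549 to 4867 lower. The same step gave 66 to 75 other G2/M genes called, 30 to 40 S phase genes, 8 to 10 anaphase-promoting complex genes, 14 to 16 MuvB and DREAM genes, 10 to 11 G1 genes and 14 to 15 inhibitors. Tested against a fold of 1.5, the calls fell to 20 S phase genes, 2 anaphase-promoting complex genes, 7 MuvB and DREAM genes and 6378 genes in all, of which 3028 were lower, since a minimum size is asked. With limma on log2(TPM + 1) over all genes above 0, 6 anaphase-promoting complex genes were called, and the cause was not tested. Scaling to the leukocyte genes gave 11024 genes higher, 872 lower and a member median of 3.40, since it moves all genes together. With the replicate number as a block, 37 members were called with a median of 1.81, and 9555 genes in all. Same-numbered libraries correlated at only -0.01 to 0.04, and for this low size the numbers were not taken as pairs. Even so, 3 of 4 spNK libraries correlated best with their own number. Leaving out spNK 3 and tuNK 1 together was added after seeing the data.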

Other observations

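Outside the 38 genes, Fam64a (Pimreg), a gene expressed in mitosis and listed among the other G2/M genes, rose by 4.26, from 4.13 to 79.4 CPM on average, and was named after its values were seen.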
